A study of Mus musculus with 4 samples.

Results

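The genes described here are 57 genes of the extracellular matrix other than collagens: adhesive and matricellular glycoproteins, the proteins of microfibrils and elastic fibres, basement membrane proteins, small leucine-rich proteoglycans, the hyaluronan-binding proteoglycans, and the lysyl oxidases with the collagen chaperone Serpinh1. They were taken by name from the 55487 gene identifiers in the deposited tables, through the symbols of a GENCODE annotation of the mouse build GRCm38. All 57 were found, and 54 of them averaged at least 1 CPM over the 4 libraries, where CPM is a count scaled to library size and composition. Thbs4, Lum and Aspn fell short of that minimum and are given by their counts.

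RNA was sequenced from primary cultured mouse astrocytes labelled OASIS deficient or OASIS wild type. OASIS is the protein of Creb3l1, a transcription factor that sits in the membrane of the endoplasmic reticulum and is cleaved to release a part that enters the nucleus. The 4 groups were OASIS deficient with doxorubicin, OASIS deficient untreated, wild type with doxorubicin and wild type untreated. Doxorubicin, a drug that causes DNA breaks through topoisomerase, was applied at 1 µg/ml for 1 h to cultures 5 days past confluence, and RNA was taken 24 h later. The days past confluence and the time of RNA collection are given here for the doxorubicin cultures only. All cultures were grown in DMEM with serum. The sources used here do not give the strain, sex and age of the animals, the number pooled per culture or how the deficiency was made. Each group holds 1 library.

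The brain has little fibrillar collagen, and most of its matrix is a net of hyaluronan, the proteoglycans that bind it, link proteins and tenascins, much of it made by glia. Basement membranes made of laminins, nidogens, perlecan and agrin lie around vessels and under the meninges, where astrocyte endfeet touch them. Matricellular proteins such as SPARC, hevin and the thrombospondins are secreted by astrocytes and act on cells and synapses more than on the structure of the matrix. Cultured astrocytes in serum also make fibronectin and microfibril proteins.

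The libraries held 17481188 to 22559613 counts, and a count of 0 allowed a level of up to 3 counts, or 0.131 to 0.174 CPM. Creb3l1, the targeted gene, had 11.9 CPM with doxorubicin and 15.1 CPM untreated in deficient cultures. Creb3l1 had 27.8 CPM with doxorubicin and 48.5 CPM untreated in wild type cultures. It was lower in deficient cultures but not absent (log2 fold change -1.46 ± 0.270 SE, adjusted p = 0.000973 in the additive genotype test with edgeR). The markers of cell types differed with genotype, where 12.6% of all genes tested rose and 10.6% fell by edgeR. Of 12 astrocyte markers 9 rose in deficient cultures and none fell by edgeR. At an unadjusted p under 0.05, 10 were higher and 0 lower, and DESeq2 called 8 and limma-voom 9, all higher. Their summed level was 10121 (doxorubicin) and 11460.2 CPM (untreated) in the deficient libraries and 4004 (doxorubicin) and 4110.0 CPM (untreated) in the wild type libraries. Of 12 oligodendrocyte lineage markers 11 rose, and Mog and Gpr17 had 0 counts in both wild type libraries. All 7 genes of a list of p53 targets fell in deficient cultures, among them Cdkn1a, with 198 CPM with doxorubicin and 186 CPM untreated in deficient cultures. Cdkn1a had 1495 CPM with doxorubicin and 1296 CPM untreated in wild type cultures. Both untreated libraries held counts of 4 Y-linked genes and both doxorubicin libraries had 0 of them. Xist had 2742 and 2547 counts in the deficient and wild type doxorubicin libraries, against 0 and 1 in the untreated ones, so that treatment and the sex of the culture cannot be told apart in any comparison by doxorubicin. In such bulk RNA fewer cells of a type and less RNA per cell cannot be told apart either.

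Genotype was compared in an additive model of genotype and treatment over the 4 libraries. The test was edgeR's quasi-likelihood test, with p-values adjusted by Benjamini-Hochberg over 15596 genes and called at 0.05 or less. Fold changes are deficient over wild type. Of the 54 matrix genes 15 rose and 11 fell in deficient cultures, against 12.6% of all genes tested that rose and 10.6% that fell. Their median log2 fold change was 0.09, against -0.01 over all genes tested. The genes that rose included the neural matrix genes Tnr, Ncan, Acan and Hapln1, the secreted glycoproteins Spon1 and Sparcl1, elastin and its partner Fbln5, the small proteoglycans Fmod and Ogn and the lysyl oxidases Loxl1 and Loxl3. The genes that fell included the laminin chains Lamb1 and Lamb2, perlecan (Hspg2), the fibulins Efemp1 and Fbln2, the TGF-beta binding protein Ltbp1 and versican (Vcan). The abundant Sparc, Spp1 and Thbs1 also fell, by smaller amounts. The test has 1 residual degree of freedom, which also holds any dependence of the response on genotype. Its estimate of spread borrows from all genes tested, with 14.3 prior degrees of freedom. The p-values thus reflect nothing more than how these 4 libraries scatter, mostly as judged over all genes and less by the gene itself. With 1 library left out and genotype alone in the model, 5 matrix genes were called without the deficient untreated library, 4 without the deficient doxorubicin library, 21 without the wild type untreated library and 24 without the wild type doxorubicin library. Tnr was the only one called in all 4 of these fits. Where libraries are said below not to overlap between genotypes, this only describes their values. The share of all genes tested that separate in this way was not counted. Of all genes tested, 72.4% had ratios of the same sign in the untreated and in the doxorubicin pair.

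**Figure D1:**
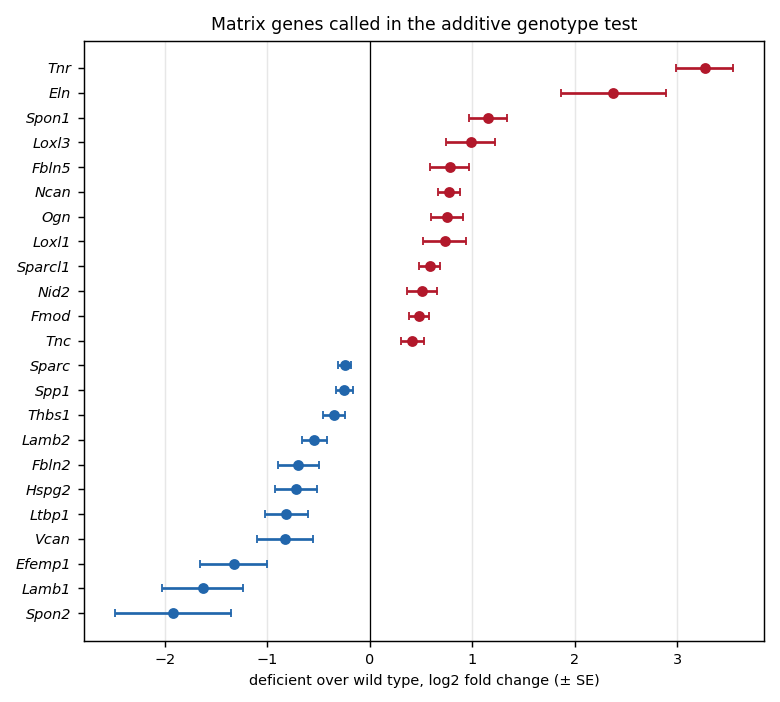
Log2 fold changes of deficient over wild type from the additive genotype test for the matrix genes called at an adjusted p of at most 0.05, with bars of 1 standard error; Acan, Lama1 and Hapln1, with 0 counts in a wild type library, are left out. Tnr, Eln and Spon1 lie farthest to the right, at 3.27, 2.38 and 1.15, and Spon2, Lamb1 and Efemp1 farthest to the left, at -1.92, -1.63 and -1.33.

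The regions around the start sites of some genes called higher or lower were read from RefSeq (GRCm38.p6), because Creb3l1 belongs to a family of factors that bind elements of the cyclic AMP response and ER stress response types. They span 250 bases before each start site to 50 bases after it. The genes had to be called, with a mean of at least 5 CPM and a single RefSeq entry. Of such genes those with the 2 highest and 2 lowest estimates were taken. Eln, Spon1, Loxl3 and Fbln5, farther out than Ncan, and Spon2, farther out than Lamb1, did not meet these conditions. Neither did Lama1, Hapln1 and Acan, also farther out than Ncan, whose means were under 5 CPM. Capitals mark matches on either strand to TGACG (a part of the cyclic AMP response element), CCACG (the end of the ER stress response element) or TATAAA (the TATA box), which do not overlap one another in these regions.
Tnr, chr1:159523519-159523818, plus strand: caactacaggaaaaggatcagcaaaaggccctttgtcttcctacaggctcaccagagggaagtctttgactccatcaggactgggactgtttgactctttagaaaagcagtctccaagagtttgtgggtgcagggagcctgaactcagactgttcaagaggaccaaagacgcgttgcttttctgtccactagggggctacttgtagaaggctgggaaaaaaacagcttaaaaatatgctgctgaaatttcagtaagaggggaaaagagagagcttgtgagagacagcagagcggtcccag
Ncan, chr8:70120795-70121094, minus strand: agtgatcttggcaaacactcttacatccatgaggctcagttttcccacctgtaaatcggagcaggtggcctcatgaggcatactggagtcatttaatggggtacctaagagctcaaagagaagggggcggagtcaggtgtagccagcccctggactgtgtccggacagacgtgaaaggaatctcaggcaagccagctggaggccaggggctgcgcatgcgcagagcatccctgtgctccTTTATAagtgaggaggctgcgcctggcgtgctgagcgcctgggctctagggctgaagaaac
Lamb1, chr12:31265043-31265342, plus strand: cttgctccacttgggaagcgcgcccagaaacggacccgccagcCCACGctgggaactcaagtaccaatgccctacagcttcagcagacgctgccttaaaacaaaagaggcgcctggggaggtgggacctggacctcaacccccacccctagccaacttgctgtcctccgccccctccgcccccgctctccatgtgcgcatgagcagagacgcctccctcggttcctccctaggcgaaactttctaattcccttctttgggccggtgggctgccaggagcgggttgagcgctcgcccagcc
Efemp1, chr11:28852955-28853254, plus strand: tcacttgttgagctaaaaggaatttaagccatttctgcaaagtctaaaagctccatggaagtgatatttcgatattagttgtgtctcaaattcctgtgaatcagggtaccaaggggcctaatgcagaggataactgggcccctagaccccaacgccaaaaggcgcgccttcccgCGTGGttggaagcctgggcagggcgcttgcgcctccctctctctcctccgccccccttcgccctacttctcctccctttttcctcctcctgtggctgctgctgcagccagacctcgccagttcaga
The Tnr region held none of the 3 motifs, and the Ncan region held TATAAA on the opposite strand. The Lamb1 region held CCACG on the strand shown, and the Efemp1 region held it on the opposite strand. Entries were matched for 39 of the 57 genes. Counting a gene once if any of its regions held the motif, TGACG lay in 6 of the 39 (15.4%), against 23% of all 27025 genes in the table. CCACG lay in 13 of the 39 (33.3%), against 35.5% of all genes, and TATAAA in 7 (17.9%), against 15.7%. Over all 32851 regions the shares were 20.8%, 32.8% and 13.6%. A match describes the letters in this window and nothing more.

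Among the adhesive glycoproteins, the tenascins and F-spondin were higher in deficient cultures and mindin was lower. Of the 8 measured genes of this class 3 rose and 1 fell, against 12.6% and 10.6% of all genes tested. Tnr, tenascin-R, a component of perineuronal nets that the oligodendrocyte lineage also makes, had 49.0 CPM with doxorubicin and 58.7 CPM untreated in deficient cultures. Tnr had 4.06 CPM with doxorubicin and 7.53 CPM untreated in wild type cultures. Both deficient libraries lay above both wild type libraries by a wide margin (log2 fold change 3.27 ± 0.282 SE, adjusted p = 4.75e-07). The ratio of the treated libraries was 12.1 (95% interval 9.75 to 15.1) and that of the untreated libraries 7.80 (95% interval 6.56 to 9.32), with intervals that cover counting error only. The 12 oligodendrocyte lineage markers moved with it, with a sum of 1076 (doxorubicin) and 1072 CPM (untreated) in the deficient libraries and 335 (doxorubicin) and 466 CPM (untreated) in the wild type libraries, and their part in the result was not tested. Tnc, tenascin-C, an anti-adhesive glycoprotein of developing and reactive tissue, had 403 CPM with doxorubicin and 367 CPM untreated in deficient cultures. Tnc had 285 CPM with doxorubicin and 292 CPM untreated in wild type cultures. The gap was smaller and the groups did not overlap (log2 fold change 0.42 ± 0.109 SE, adjusted p = 0.0115). Spon1, F-spondin, which promotes the outgrowth of axons, had 91.3 CPM with doxorubicin and 68.4 CPM untreated in deficient cultures. Spon1 had 42.5 CPM with doxorubicin and 29.7 CPM untreated in wild type cultures. Its deficient libraries were above both wild type libraries, and the doxorubicin library was the higher one within each genotype (log2 fold change 1.15 ± 0.184 SE, adjusted p = 0.000268). Spon2, mindin, a matrix protein with a role in innate immunity, was at 1.42 CPM with doxorubicin and 7.73 CPM untreated in deficient cultures. Spon2 had 12.4 CPM with doxorubicin and 13.9 CPM untreated in wild type cultures. The deficient doxorubicin library stood far below the other 3 libraries (log2 fold change -1.92 ± 0.568 SE, adjusted p = 0.0224). Fn1, fibronectin, the main adhesive ligand of integrins, was the most abundant gene of the class by TPM, a unit scaled by transcript length and library total. It was at 159 TPM with doxorubicin and 166 TPM untreated in deficient cultures. Fn1 had 185 TPM with doxorubicin and 221 TPM untreated in wild type cultures. It did not pass the genotype test (log2 fold change -0.17 ± 0.0929 SE, adjusted p = 0.22). With 1 library left out, the highest adjusted p was 0.00518 for Tnr. For Spon1 it was 0.127, without the deficient doxorubicin library. For Tnc, whose call was lost without either deficient library, it was 0.262. For Spon2, which kept its call only without the deficient untreated library, it was 0.478.

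Postn, periostin, a glycoprotein of collagen-rich tissue, was measured at 152 counts with doxorubicin and 223 counts untreated in deficient cultures. Postn had 219 counts with doxorubicin and 2 counts untreated in wild type cultures. The wild type untreated library was close to 0 and the other 3 libraries lay between 7.68 and 12.95 CPM, so that the ratio of deficient over wild type was 129 (95% interval 35.3 to 1072) without treatment, while the log2 ratio with doxorubicin was -0.28. Postn did not pass the additive genotype test (log2 fold change 2.40 ± 1.23 SE, adjusted p = 0.185). Tgfbi and Matn2 passed neither test, with log2 ratios of deficient over wild type between -0.40 and 0.83.

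**Figure D2:**
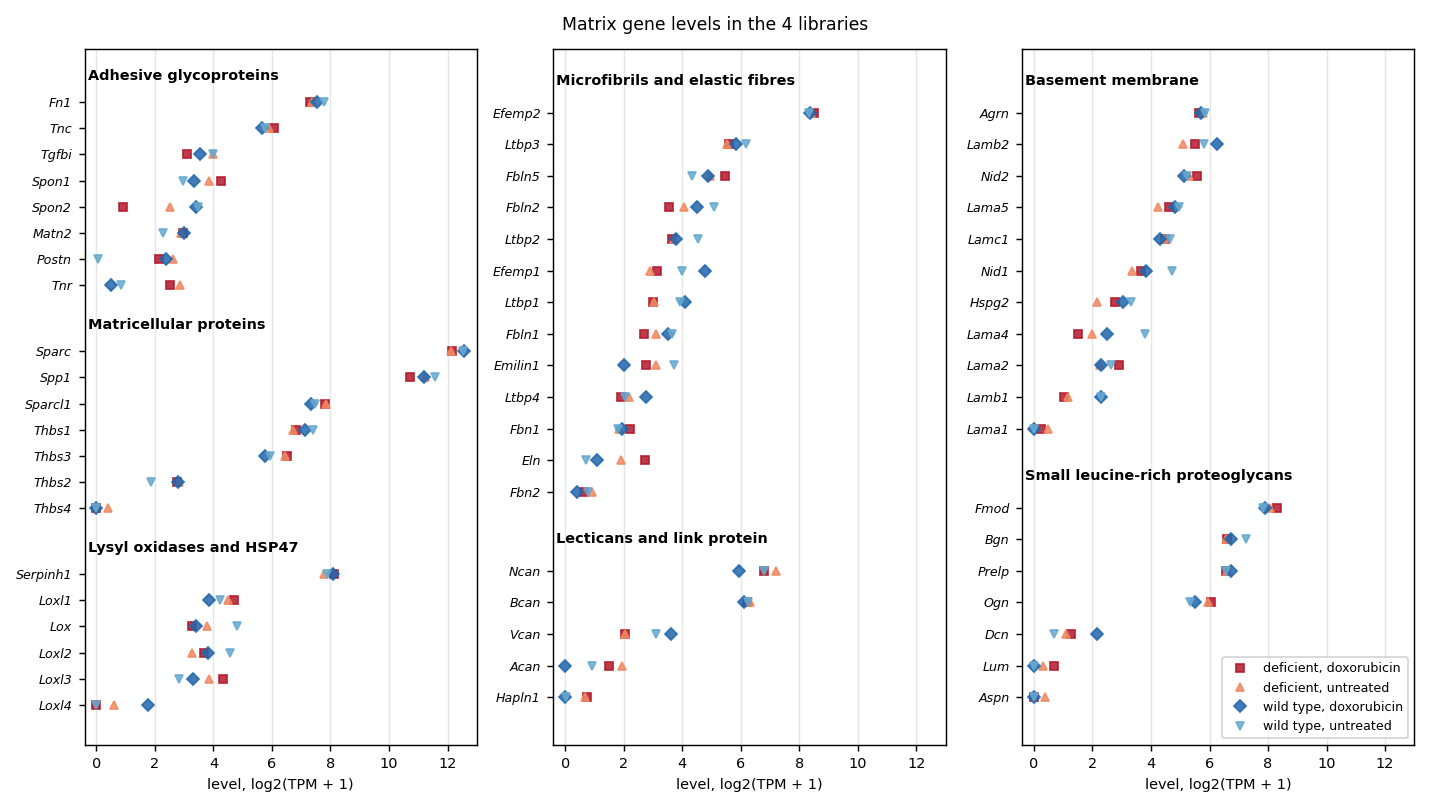
Levels of the 57 matrix genes in the 4 libraries as log2(TPM + 1), a log scale, grouped by class, with each library as a marker of its own. Tnr, Eln, Acan and Hapln1 stand higher in both deficient libraries, Lamb1 and Efemp1 stand lower, and Sparc and Spp1 are the highest in all 4 libraries.

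The matricellular genes held most of the matrix RNA, and the most abundant of them were lower in deficient cultures. Of the 6 measured genes 1 rose and 3 fell, against 12.6% and 10.6% of all genes tested. Sparc, which binds collagen and counters cell adhesion, had 4890.3 CPM with doxorubicin and 4878 CPM untreated in deficient cultures. Sparc had 5979.8 CPM with doxorubicin and 5615 CPM untreated in wild type cultures. Both libraries of a genotype were close, and both deficient ones were lower (log2 fold change -0.25 ± 0.0637 SE, adjusted p = 0.0103). Spp1, osteopontin, an integrin ligand also made by microglia, had 1591 CPM with doxorubicin and 2333 CPM untreated in deficient cultures. Spp1 had 2060.1 CPM with doxorubicin and 2543 CPM untreated in wild type cultures. Its libraries overlapped between genotypes, since the deficient untreated library lay above the wild type doxorubicin library (log2 fold change -0.25 ± 0.0818 SE, adjusted p = 0.0384). Without the deficient doxorubicin library the estimate turned to 0.0197, with an adjusted p of 0.963, and Spp1 was called in none of the 4 fits with a library left out. The sum of 15 microglia markers ran in the same order as Spp1 across the 4 libraries, with 976 and 1459.8 CPM in deficient cultures with and without doxorubicin, against 1113 and 1540.3 CPM in wild type cultures with and without it, and their part in the result was not tested. Thbs1, thrombospondin, which promotes synapse formation when released by astrocytes, had 543 CPM with doxorubicin and 508 CPM untreated in deficient cultures. Thbs1 had 615 CPM with doxorubicin and 730.1 CPM untreated in wild type cultures. Both deficient libraries lay below both wild type libraries (log2 fold change -0.35 ± 0.106 SE, adjusted p = 0.025). Sparcl1, hevin, also a promoter of synapse formation and related to Sparc, had 483 CPM with doxorubicin and 511 CPM untreated in deficient cultures. Sparcl1 had 322 CPM with doxorubicin and 342 CPM untreated in wild type cultures. It went the other way, again without overlap (log2 fold change 0.58 ± 0.103 SE, adjusted p = 0.000662). The TPM ratio of Sparc to Sparcl1 within a library, a pair chosen after the values were seen, was 20.2 with doxorubicin and 19.1 untreated in deficient astrocytes, against 37.5 with doxorubicin and 33.3 untreated in wild type astrocytes. Sparcl1 lost its call only without the deficient untreated library (adjusted p = 0.0707). Of the 4 fits with a library left out, Thbs1 was called only without the wild type doxorubicin library, with an adjusted p of up to 0.318. Sparc was called only without the wild type untreated library, with an adjusted p of up to 0.267.

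Thbs2, a relative of Thbs1, had 546 counts with doxorubicin and 516 untreated in deficient astrocytes, against 596 with doxorubicin and 226 untreated in wild type astrocytes. Its ratio of deficient over wild type was 2.64 (95% interval 2.26 to 3.10) without treatment and its log2 ratio was 0.08 with doxorubicin, and it did not pass the additive genotype test (log2 fold change 0.73 ± 0.324 SE, adjusted p = 0.121). Thbs3 had 46.1 CPM with doxorubicin and 38.0 CPM untreated in deficient cultures. Thbs3 had 35.2 CPM with doxorubicin and 21.9 CPM untreated in wild type cultures. It did not pass either (log2 fold change 0.59 ± 0.232 SE, adjusted p = 0.0823). Thbs3 shares 6.59% of its exonic bases with Mtx1, a protein-coding gene on the opposite strand. Reads of both cannot be told apart there in a library without strand. Thbs4 had 14 counts in the deficient untreated library and 0 in the others.

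By TPM, matricellular genes summed to 6677 with doxorubicin and 7256 untreated in deficient astrocytes, against 8693 with doxorubicin and 9313 untreated in wild type astrocytes. All 57 genes together took 0.877% with doxorubicin and 0.923% untreated of the TPM of deficient astrocytes, against 1.07% with doxorubicin and 1.14% untreated in wild type astrocytes. Sparc and Spp1 made up 71.2% with doxorubicin and 74.0% untreated of that matrix total in deficient cultures, against 78.1% and 77.95% in wild type cultures with doxorubicin and untreated. The matrix total was thus lower in both deficient libraries, and these sums follow those 2 genes. By CPM the gap was smaller, with 13305 and 13957 CPM in deficient cultures with and without doxorubicin, against 14027 and 14513 CPM in wild type cultures with and without it. On the TPM scale the median ratio of all genes is shifted as well, by -0.10 with doxorubicin and -0.20 untreated (log2 of deficient over wild type). The other classes were far smaller. Small leucine-rich proteoglycans summed to 570.4 and 522 TPM in deficient cultures with and without doxorubicin, against 499 and 511 TPM in wild type cultures with and without it. The hyaluronan-binding class summed to 189 and 231 TPM in deficient cultures with and without doxorubicin, against 140.5 and 193 TPM in wild type cultures with and without it. Basement membrane genes summed to 213 and 186 TPM in deficient cultures with and without doxorubicin, against 239 and 259 TPM in wild type cultures with and without it. By TPM the deficient libraries were thus above the wild type ones for the small proteoglycans, overlapped them for the hyaluronan-binding class and lay below them for basement membrane genes. Single genes carried much of the first 2 sums. Fmod had 313 and 269 TPM in deficient cultures with and without doxorubicin, against 237 and 225 TPM in wild type cultures. Bgn went the other way, at 96.2 and 94.2 TPM against 107 and 151 TPM. Ncan had 110 and 145 TPM, against 60.6 and 110 TPM. By CPM the hyaluronan-binding class did not overlap, with 864 and 1109.8 CPM in deficient cultures with and without doxorubicin, against 541 and 779 CPM in wild type cultures with and without it. Microfibril and elastic fibre genes lay between 483 and 527 TPM, lysyl oxidases with Serpinh1 between 275 and 341 TPM, and adhesive glycoproteins between 266 and 311 TPM in the 4 libraries.

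**Figure D3:**
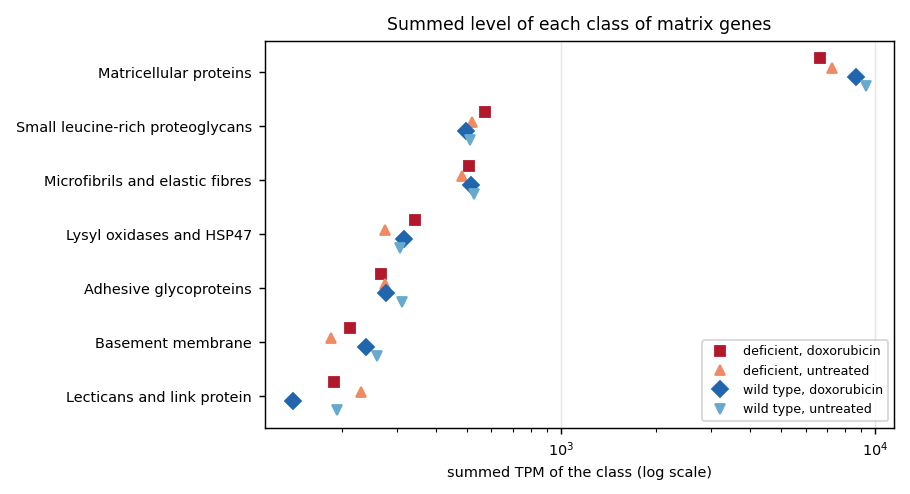
Summed TPM of each class of matrix gene in the 4 libraries, on a log axis. The matricellular class lies between 6677 and 9313 TPM, above every other class, and it is lower in both deficient libraries than in both wild type libraries.

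Genes of microfibrils and elastic fibres went both ways: elastin and Fbln5 were higher in deficient cultures, while Efemp1, Fbln2 and Ltbp1 were lower. Of 13 measured genes 2 rose and 3 fell, against 12.6% and 10.6% of all genes tested. Eln, the elastin core of elastic fibres, had 15.7 CPM with doxorubicin and 8.54 CPM untreated in deficient cultures. Eln had 2.75 CPM with doxorubicin and 1.81 CPM untreated in wild type cultures. It was low in all 4 libraries by count and higher in both deficient ones, with ratios of 5.71 (95% interval 4.35 to 7.62) with doxorubicin and 4.72 (95% interval 3.26 to 7.01) untreated (log2 fold change 2.38 ± 0.514 SE, adjusted p = 0.00315). Fbln5, which brings elastin onto microfibrils, had 78.5 CPM with doxorubicin and 55.4 CPM untreated in deficient cultures. Fbln5 had 47.9 CPM with doxorubicin and 30.8 CPM untreated in wild type cultures. Both deficient libraries lay above both wild type libraries (log2 fold change 0.78 ± 0.191 SE, adjusted p = 0.00739). Efemp1, a fibulin of elastic tissue, had 10.8 CPM with doxorubicin and 9.76 CPM untreated in deficient cultures. Efemp1 had 34.5 CPM with doxorubicin and 19.2 CPM untreated in wild type cultures. Its widest gap was between the doxorubicin libraries, with a ratio of 0.313 (95% interval 0.268 to 0.365). Fbln2, a fibulin that binds fibronectin and laminins, had 35.2 (doxorubicin) and 42.8 CPM (untreated) in the deficient libraries and 49.0 (doxorubicin) and 81.1 CPM (untreated) in the wild type libraries. Ltbp1, which ties latent TGF-beta to the matrix, had 31.9 CPM with doxorubicin and 30.3 CPM untreated in deficient cultures. Ltbp1 had 54.8 CPM with doxorubicin and 54.6 CPM untreated in wild type cultures. It was nearly the same with and without doxorubicin in each genotype. None of the 3 overlapped between genotypes, and the additive estimates were -1.33 ± 0.325 SE for Efemp1 (adjusted p = 0.00721), -0.70 ± 0.201 SE for Fbln2 (adjusted p = 0.0192) and -0.82 ± 0.21 SE for Ltbp1 (adjusted p = 0.0101). Eln lost its call without the deficient doxorubicin library (adjusted p = 0.235), and Ltbp1 without either deficient library (adjusted p up to 0.143). Of the 4 fits with a library left out, Efemp1 was called only without the wild type untreated library, with an adjusted p of up to 0.158. Fbln5 and Fbln2 were called only without the wild type doxorubicin library, with adjusted p of up to 0.475 and 0.372.

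Efemp2, which is needed for elastic fibre assembly and was the most abundant gene of this class, was at 359 and 341 TPM in deficient cultures with and without doxorubicin, against 329 and 320.5 TPM in wild type cultures with and without it. Ltbp3 was at 47.2 and 44.9 TPM in deficient cultures with and without doxorubicin, against 56.8 and 72.3 TPM in wild type cultures with and without it. Neither passed the genotype test, with adjusted p of 0.157 and 0.0836. Fbn1, the fibrillin backbone of microfibrils, did not pass either (log2 fold change 0.35 ± 0.272 SE, adjusted p = 0.407), and the TPM ratio of Eln to Fbn1, a pair chosen after the values were seen, was 1.51 with doxorubicin and 1.09 untreated in deficient astrocytes, against 0.394 with doxorubicin and 0.258 untreated in wild type astrocytes. Gm9913, a gene on the opposite strand annotated as protein-coding, overlaps 20.1% of the exonic bases of Fbn1. It had 24 counts in the wild type doxorubicin library and 0 in the others. Emilin1, which lies between elastin and microfibrils, had 12.5 CPM with doxorubicin and 13.2 CPM untreated in deficient cultures. Emilin1 had 6.46 CPM with doxorubicin and 22.9 CPM untreated in wild type cultures. The wild type libraries lay far apart, on either side of the deficient ones. Fbn2 was low in all 4 libraries and lowest in the wild type doxorubicin library, with 49 counts with doxorubicin and 79 counts untreated in deficient cultures. Fbn2 had 11 counts with doxorubicin and 81 counts untreated in wild type cultures. Fbln1, Ltbp2 and Ltbp4 passed neither test, with log2 ratios of deficient over wild type between -0.98 and 0.28.

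In the basement membrane class the laminin beta chains and perlecan were lower in deficient cultures, and Nid2 and the nearly silent Lama1 were higher. Of 11 measured genes 2 rose and 3 fell, against 12.6% and 10.6% of all genes tested. Lamb1, the beta chain of the laminins of early basement membranes, had 5.01 CPM with doxorubicin and 6.27 CPM untreated in deficient cultures. Lamb1 had 17.7 CPM with doxorubicin and 17.02 CPM untreated in wild type cultures. Both deficient libraries were at about the same low level, with ratios of 0.282 (95% interval 0.224 to 0.352) with doxorubicin and 0.369 (95% interval 0.294 to 0.459) untreated (log2 fold change -1.63 ± 0.397 SE, adjusted p = 0.00708). By CPM it was the only matrix gene at least 2-fold lower in both genotype comparisons, and by TPM Efemp1, Vcan and Lama4 were so too. Lamb2, the beta chain found at synapses and in vessels, had 171 CPM with doxorubicin and 158 CPM untreated in deficient cultures. Lamb2 had 272 CPM with doxorubicin and 210.2 CPM untreated in wild type cultures. It too was lower in both deficient libraries (log2 fold change -0.54 ± 0.124 SE, adjusted p = 0.0047). By TPM it was 43.4 times Lamb1 with doxorubicin and 26.9 times untreated in deficient astrocytes, against 19.5 times with doxorubicin and 14.4 times untreated in wild type astrocytes. This pair was chosen after the values were seen. Hspg2, perlecan, a heparan sulphate proteoglycan that binds laminins and growth factors, had 69.8 CPM with doxorubicin and 42.6 CPM untreated in deficient cultures. Hspg2 had 83.9 CPM with doxorubicin and 96.7 CPM untreated in wild type cultures. The deficient untreated library was the lowest (log2 fold change -0.72 ± 0.204 SE, adjusted p = 0.0181). Nid2, a nidogen that links laminin to collagen, had 165 CPM with doxorubicin and 134 CPM untreated in deficient cultures. Nid2 had 101 CPM with doxorubicin and 108 CPM untreated in wild type cultures. It was higher in both deficient libraries (log2 fold change 0.51 ± 0.146 SE, adjusted p = 0.0182). It shares 8.45% of its exonic bases with the antisense gene Rtraf. Lama1, an alpha chain of early basement membranes, had 15 counts with doxorubicin and 60 counts untreated in deficient cultures. Lama1 had 0 counts with doxorubicin and 0 counts untreated in wild type cultures. Its level in the untreated deficient library was at least 23.1-fold higher than the limit of 3 counts in its wild type pair, and with such counts the fitted estimate gives no size. Lama1 lost its call without the deficient untreated library (adjusted p = 0.163), and Lamb1 without either deficient library (adjusted p up to 0.125). Lamb2 and Nid2 kept theirs only without the wild type untreated library, with adjusted p of up to 0.213 and 0.356. Hspg2 kept its call only without the deficient doxorubicin library, with an adjusted p of up to 0.420.

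Agrn, agrin, which clusters receptors at synapses and was about as abundant as Lamb2 by TPM, was at 49.3 TPM with doxorubicin and 53.5 TPM untreated in deficient cultures. Agrn had 51.1 TPM with doxorubicin and 56.3 TPM untreated in wild type cultures. It did not pass (log2 fold change -0.07 ± 0.131 SE, adjusted p = 0.766). Nid1 had 748 counts with doxorubicin and 446 counts untreated in deficient cultures. Nid1 had 866 counts with doxorubicin and 1368 counts untreated in wild type cultures. Its untreated ratio of deficient over wild type was 0.377 (95% interval 0.338 to 0.420), and the doxorubicin libraries were alike at this scale. Lama2, the alpha chain of muscle and astrocyte endfoot laminins, had 313 counts with doxorubicin and 222 counts untreated in deficient cultures. Lama2 had 86 counts with doxorubicin and 312 counts untreated in wild type cultures. There the wild type doxorubicin library stood below the other 3. On the deposited TPM scale this gap shrank, to a log2 ratio of 0.74 of deficient over wild type with doxorubicin, against 2.07 from CPM without a pseudocount. Lama4, Lama5 and Lamc1 did not pass, with adjusted p of 0.298, 0.189 and 0.28, and Lama4 differed by scale, at -2.11 from TPM and -0.58 from CPM on the log2 scale for the untreated pair. Of 14 listed markers of endothelium and pericytes, cells that also make these proteins, 7 were measured. In deficient cultures 2 fell and none rose, by edgeR, DESeq2 and limma-voom alike. By edgeR at an unadjusted p under 0.05, 3 were lower and 0 higher. At 2-fold, 0 were higher and 2 lower untreated, against 9.79% and 10.2% of all genes tested. With doxorubicin 1 was higher and 4 lower, against 10.7% and 9.55%. Their sum over the 14 genes was 27.6 (doxorubicin) and 23.8 CPM (untreated) in the deficient libraries. It was 61.8 (doxorubicin) and 56.5 CPM (untreated) in the wild type libraries. Tie1 was at 0 in all 4 libraries, Cldn5 and Tek in both deficient ones and Cdh5 in both wild type ones. Emcn had counts in the deficient doxorubicin library only. The part of these cells in the basement membrane results was not tested.

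The small leucine-rich proteoglycans, which bind collagen and shape its fibrils, included 2 genes that rose in deficient cultures and none that fell, of 5 measured (edgeR, with 2 and 0 at an unadjusted p under 0.05 and with DESeq2 and limma-voom). Over all genes tested 12.6% rose and 10.6% fell by edgeR. Fmod, fibromodulin, the most abundant of them by TPM, had 799.8 CPM with doxorubicin and 705 CPM untreated in deficient astrocytes, against 565 CPM with doxorubicin and 512 CPM untreated in wild type astrocytes. Ogn, osteoglycin, had 108 (doxorubicin) and 102 CPM (untreated) in the deficient libraries and 67.3 (doxorubicin) and 57.5 CPM (untreated) in the wild type libraries. Both genes were higher in both deficient libraries and close in level with and without doxorubicin within a genotype, with estimates of 0.48 ± 0.0952 SE for Fmod (adjusted p = 0.00164) and 0.76 ± 0.157 SE for Ogn (adjusted p = 0.00233). Fmod lost its call without the deficient doxorubicin library (adjusted p = 0.185), and Ogn without either deficient library (adjusted p up to 0.111). Bgn, biglycan, an X-linked gene, had 183 CPM with doxorubicin and 182 CPM untreated in deficient cultures. Bgn had 189 CPM with doxorubicin and 254 CPM untreated in wild type cultures. The wild type untreated library stood above the other 3, and Bgn did not pass (log2 fold change -0.26 ± 0.132 SE, adjusted p = 0.174). Prelp did not pass (log2 fold change 0.11 ± 0.121 SE, adjusted p = 0.595). Dcn, decorin, abundant in fibroblasts, was low, with 34 counts with doxorubicin and 25 counts untreated in deficient cultures. Dcn had 85 counts with doxorubicin and 13 counts untreated in wild type cultures. Lum, lumican, had 21 counts with doxorubicin and 7 untreated in deficient astrocytes and 0 counts in both wild type libraries, and Aspn, asporin, had 7 counts in the deficient untreated library and 0 in the others. Of 15 measured markers of fibroblasts and meninges none was called by edgeR (by unadjusted p under 0.05, 2 higher and 1 lower; 0 with DESeq2, and 1 higher with limma-voom), and their sum over 17 listed genes was 349.8 (doxorubicin) and 383 CPM (untreated) in the deficient libraries and 251 (doxorubicin) and 459 CPM (untreated) in the wild type libraries.

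Among the hyaluronan-binding proteoglycans and their link protein, neurocan, aggrecan and Hapln1 were higher in deficient cultures and versican was lower. Of 5 measured genes 3 rose and 1 fell, against 12.6% and 10.6% of all genes tested. Ncan, neurocan, a brain proteoglycan of the perineuronal matrix, had 672 CPM with doxorubicin and 909.6 CPM untreated in deficient cultures. Ncan had 349 CPM with doxorubicin and 602 CPM untreated in wild type cultures. Within each treatment the deficient library was the higher one, and within each genotype the doxorubicin library was the lower one, and the deficient doxorubicin library lay only just above the wild type untreated one, with which it was level by TPM (log2 fold change 0.77 ± 0.106 SE, adjusted p = 6.87e-05 for genotype). Acan, aggrecan, the main proteoglycan of perineuronal nets, was measured at 126 counts with doxorubicin and 157 counts untreated in deficient cultures. Acan had 0 counts with doxorubicin and 65 counts untreated in wild type cultures. Its ratio was 2.79 (95% interval 2.08 to 3.79) untreated and at least 48.6-fold higher with doxorubicin against the limit of 3 counts. It passed the genotype test (adjusted p = 0.0366 by edgeR), and DESeq2 and limma-voom did not call it. The fitted estimate ran from 1.24 to 10.27 on the log2 scale with a library left out and, with a count of 0, gives no size. Hapln1, the link protein that locks these proteoglycans onto hyaluronan, was measured at 30 counts with doxorubicin and 43 counts untreated in deficient cultures. Hapln1 had 0 counts with doxorubicin and 1 count untreated in wild type cultures. It was nearly absent from wild type cultures, with an untreated ratio of 49.8 (95% interval 8.47 to 2010.3) and a level at least 11.6-fold higher than the limit of 3 counts with doxorubicin. Vcan, versican, a proteoglycan of immature and vascular matrix, had 17.4 CPM with doxorubicin and 19.5 CPM untreated in deficient cultures. Vcan had 39.8 CPM with doxorubicin and 27.0 CPM untreated in wild type cultures. Both deficient libraries lay below both wild type libraries (log2 fold change -0.83 ± 0.276 SE, adjusted p = 0.0401), DESeq2 did not call it, and by TPM the log2 ratio of deficient over wild type was -1.28 untreated and -1.84 with doxorubicin, further from 0 than the -0.47 and -1.19 from CPM. Bcan, brevican, a proteoglycan of the adult brain made by astrocytes, had 166 CPM with doxorubicin and 169 CPM untreated in deficient cultures. Bcan had 152 CPM with doxorubicin and 147 CPM untreated in wild type cultures. It did not pass (log2 fold change 0.16 ± 0.128 SE, adjusted p = 0.401). The TPM ratio of Ncan to Vcan, chosen after the values were seen, was 35.3 with doxorubicin and 45.9 untreated in deficient astrocytes, against 5.43 with doxorubicin and 14.3 untreated in wild type astrocytes. Hapln1 lost its call without either deficient library (adjusted p up to 0.128). Of the 4 fits with a library left out, Ncan, Acan and Vcan were called only without the wild type untreated library. Their adjusted p ran up to 0.331 for Ncan, 0.587 for Acan and 0.313 for Vcan. Of 9 measured markers of neurons, whose nets hold these proteins, 5 rose in deficient cultures and none fell by edgeR. By edgeR at an unadjusted p under 0.05, 6 were higher and 2 lower. DESeq2 called 4 higher and 0 lower, and limma-voom 6 higher and 1 lower. At 2-fold, 5 were higher and 1 lower untreated, against 9.79% and 10.2% of all genes tested. With doxorubicin 5 were higher and 2 lower, against 10.7% and 9.55%. Their sum over 12 listed genes was 440.3 (doxorubicin) and 414 CPM (untreated) in the deficient libraries and 215 (doxorubicin) and 238 CPM (untreated) in the wild type libraries. Slc17a6 was at 0 in all 4 libraries, and Snap25 and Dcx were at 0 in both wild type libraries. Nefl was at 0 in the deficient doxorubicin library only, and Slc17a7 in both doxorubicin libraries. Rbfox3 and Gad1 were at 0 in the wild type untreated library only. The part of neurons in these results was not tested.

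Of the lysyl oxidases, the enzymes that crosslink collagen and elastin, Loxl1 and Loxl3 were higher in deficient cultures. In this class of 6 measured genes 2 rose and none fell (edgeR, by unadjusted p under 0.05, 2 higher and 1 lower; 2 higher and 0 lower with DESeq2, 2 higher and 2 lower with limma-voom). Over all genes tested 12.6% rose and 10.6% fell by edgeR. Loxl1, which acts mainly on elastin, had 65.0 CPM with doxorubicin and 56.6 CPM untreated in deficient cultures. Loxl1 had 32.9 CPM with doxorubicin and 40.6 CPM untreated in wild type cultures (log2 fold change 0.73 ± 0.209 SE, adjusted p = 0.0186). Both deficient libraries lay above both wild type ones. Loxl3 had 46.0 CPM with doxorubicin and 44.8 CPM untreated in deficient cultures. Loxl3 had 28.3 CPM with doxorubicin and 18.6 CPM untreated in wild type cultures (log2 fold change 0.98 ± 0.242 SE, adjusted p = 0.0076). There too the deficient libraries were the higher ones, and 11.6% of its exonic bases overlap Htra2, a protein-coding gene on the opposite strand. Lox, the founding member of the family, had 28.9 CPM with doxorubicin and 44.0 CPM untreated in deficient cultures. Lox had 28.9 CPM with doxorubicin and 81.0 CPM untreated in wild type cultures. The wild type untreated library was the highest, and Lox did not pass (log2 fold change -0.45 ± 0.235 SE, adjusted p = 0.198). Loxl2 had 738 counts with doxorubicin and 500 counts untreated in deficient cultures. Loxl2 had 892 counts with doxorubicin and 1257 counts untreated in wild type cultures. Its highest library was the same one, and it did not pass either (log2 fold change -0.59 ± 0.254 SE, adjusted p = 0.111). Loxl4 had 0 counts with doxorubicin and 29 counts untreated in deficient cultures. Loxl4 had 146 counts with doxorubicin and 0 counts untreated in wild type cultures. The untreated and the doxorubicin comparison therefore pointed in opposite directions, at least 11.2-fold higher in deficient cultures untreated and at least 42.0-fold lower with doxorubicin. Serpinh1, the chaperone that procollagen needs in the endoplasmic reticulum, was the most abundant gene of the class. It had 277 TPM with doxorubicin and 218 TPM untreated in deficient cultures. Serpinh1 had 269 TPM with doxorubicin and 234 TPM untreated in wild type cultures. It did not pass (log2 fold change 0.11 ± 0.104 SE, adjusted p = 0.494). Loxl3 lost its call without either deficient library (adjusted p up to 0.186), and Loxl1 kept its call only without the wild type untreated library (adjusted p up to 0.291).

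The genotypes were also compared separately in untreated and in doxorubicin-treated cultures. These comparisons set 1 library against another and have no replicate check and no p-value. A gene counted as higher or lower when its log2 ratio, with 1 CPM added to each value, reached 1 in size, which is 2-fold. Untreated, 10 of the 54 matrix genes were higher in deficient cultures and 4 lower, against 9.79% and 10.2% of all genes tested. With doxorubicin 7 were higher and 5 lower, against 10.7% and 9.55%. On the deposited TPM scale, which shifts the median log2 ratio of all genes by -0.20 untreated and by -0.10 with doxorubicin, the counts were 5 higher and 9 lower untreated and 4 higher and 6 lower with doxorubicin, so the balance of the 2 directions depends on the scale. Their median log2 ratio was 0.13 untreated, against -0.03 over all genes, and 0.00 with doxorubicin, against 0.02 over all genes.

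These 2 comparisons share no library. The ratios of 44 of the 54 matrix genes (81.5%) had the same sign in both, against 72.4% of all genes tested. At least 2-fold higher in both were Tnr, Spon1, Eln, Acan and Hapln1, 5 of 54, against 5.76% of all genes. Lamb1 alone was at least 2-fold lower in both, against 5.17% of all genes, and Loxl4 was past 2-fold in opposite directions. By TPM, with 1 TPM added and a mean of at least 1 TPM, 4 genes were higher in both (Tnr, Eln, Acan and Loxl3) and 4 lower (Lamb1, Efemp1, Vcan and Lama4). Lama4 was only just past 2-fold with doxorubicin, at a log2 ratio of -1.01. Postn, Thbs2, Loxl3 and Lama1 were past 2-fold higher untreated only, and Nid1, Hspg2 and Loxl2 past 2-fold lower untreated only. With doxorubicin only, Fbn2 and Lama2 were past 2-fold higher and Spon2, Efemp1 and Vcan past 2-fold lower. A gene past 2-fold in 1 of the comparisons and short of it in the other is not thereby shown to differ between them.

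**Figure D4:**
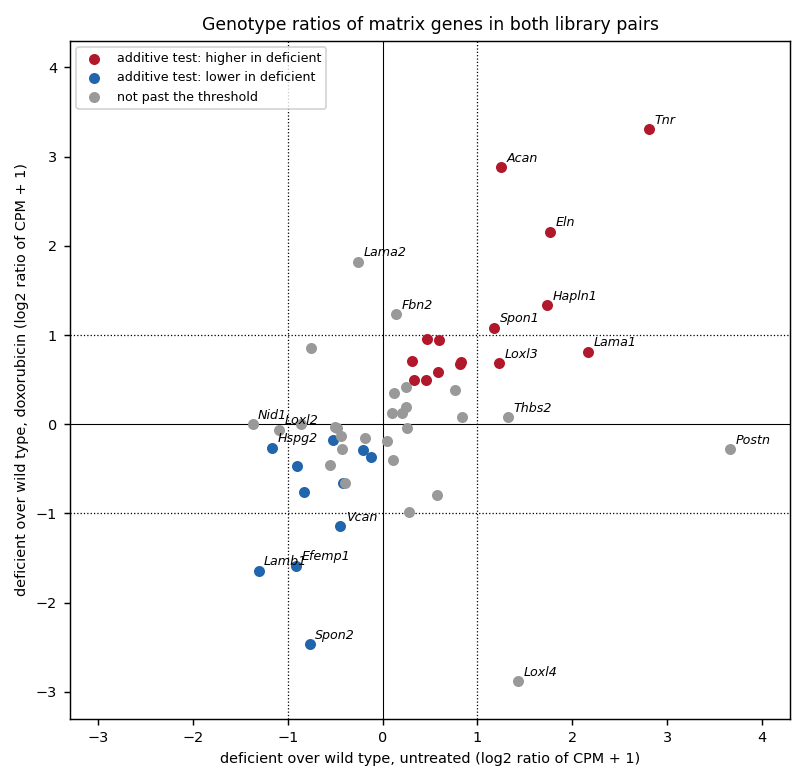
Log2 ratios of deficient over wild type (1 CPM added) of the measured matrix genes with doxorubicin and untreated, with lines at 2-fold. Tnr, Spon1, Eln, Acan and Hapln1 lie past 2-fold higher on both axes, Lamb1 lies past 2-fold lower on both, and Postn and Loxl4 lie far from the diagonal.

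Doxorubicin was compared with no treatment in the same additive model. Ncan was the only matrix gene called: 0 of 54 rose and 1 fell, against 0.0192% of all genes tested that rose and 0.141% that fell. Its estimate was log2 fold change -0.61 ± 0.106 SE, adjusted p = 0.0273 (edgeR), lower with doxorubicin in both genotypes. At an unadjusted p under 0.05, 3 matrix genes were higher and 8 lower, and DESeq2 called 0 higher and 2 lower and limma-voom 0 higher and 3 lower, adding Spp1 in both and Lox in limma-voom. Spp1 had log2 fold change -0.43 ± 0.0819 SE, adjusted p = 0.0576, and Lox had log2 fold change -1.05 ± 0.237 SE, adjusted p = 0.145. The median log2 fold change of the matrix genes was 0.03, against 0.01 over all genes tested. Of the 7 p53 targets listed above, edgeR called 0 in this test, with a median log2 fold change of 0.15. At an unadjusted p under 0.05 by edgeR, 2 of them were higher and 0 lower. Library against library, 0 of the 7 were at least 2-fold higher or lower with doxorubicin in either genotype. Ncan was not called in any of the 4 fits with a library left out and treatment alone in the model. Whether these differences belong to the drug or to the sex of the cultures cannot be told apart.

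Library against library, 0 matrix genes were at least 2-fold higher with doxorubicin in deficient cultures and 3 lower, against 1.58% and 1.93% of all genes tested. The 3 were Spon2, with a ratio of 0.183 (95% interval 0.117 to 0.277), Lama1, with 0.218 (95% interval 0.115 to 0.388), and Loxl4, at least 11.1-fold lower against the limit of 3 counts. In wild type cultures 4 were higher and 5 lower, against 4.08% and 5.45% of all genes tested. Higher were Postn, with a ratio of 95.3 (95% interval 26.1 to 791), Loxl4, at least 42.3-fold, Thbs2, with 2.29 (95% interval 1.97 to 2.69), and Dcn, with 5.69 (95% interval 3.15 to 11.1). Lower were Acan, at least 24.9-fold, Fbn2, with 0.118 (95% interval 0.0567 to 0.223), Lama2, with 0.240 (95% interval 0.187 to 0.305), Emilin1, with 0.282 (95% interval 0.233 to 0.341), and Lox, with 0.356 (95% interval 0.325 to 0.390). By TPM the log2 ratio was -1.10 for Fbn2 and -0.43 for Lama2, against -3.08 and -2.06 by CPM, all without a pseudocount, so the size of these 2 depends on the scale. The ratios of 35 of the 54 genes (64.8%) had the same sign in both genotypes, against 50.7% of all genes tested, and none was past 2-fold in the same direction in both.

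The difference of both doxorubicin ratios, deficient minus wild type on the log2 scale, reached 1 in size upward for 6 of the 54 genes and downward for 7, against 7.66% and 6.05% of all genes tested. With 1 CPM added, the upward differences included Lama2, at 2.08, Acan, at 1.63, and Emilin1, at 1.61. Their order depended on the scale: by TPM with 1 added Lama2 was at 0.98, Acan at 0.47 and Emilin1 at 1.36, and by CPM without a pseudocount Lama2 was at 2.36, Emilin1 at 1.75 and Acan at 4.12 or more. Downward it was largest for Loxl4, at -4.31, and Postn, at -3.95, with 1 CPM added, and also by CPM without a pseudocount, at -8.88 or beyond for Loxl4 and -7.33 for Postn. This difference rests on 4 single libraries and was not tested.

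**Figure D5:**
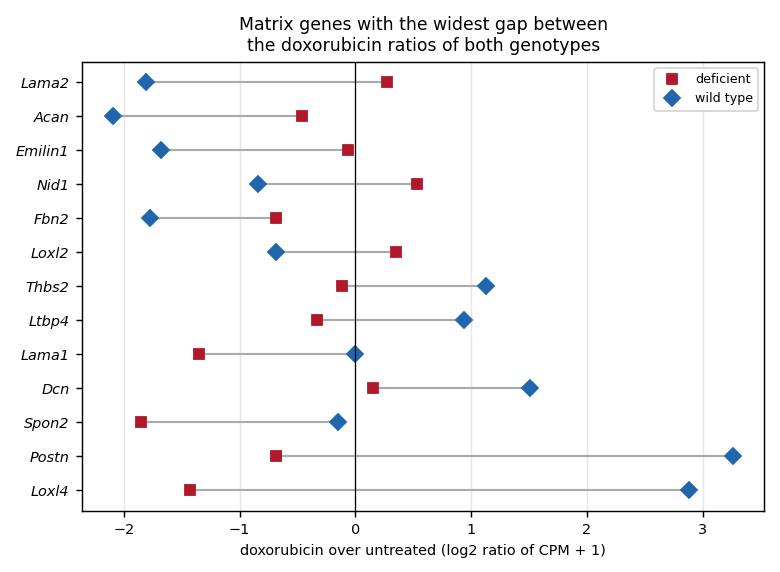
Log2 ratios of doxorubicin over untreated (1 CPM added) in deficient and in wild type cultures for the 13 matrix genes whose 2 ratios differ by at least 1, joined by a line. For most of these genes the wild type ratio lies farther from 0 than the deficient one, and Postn and Loxl4 show the widest gaps.

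Lists of genes that work with these members were set beside them, with counts from the additive genotype test. In that test 12.6% of all genes tested rose and 10.6% fell, and the counts of each list are to be read against these shares. Of 24 measured relatives of the same families 2 rose and 2 fell, with a median log2 fold change of 0.37, against -0.01 over all genes tested. Ecm1, a secreted matrix protein that binds perlecan, had 130.1 CPM with doxorubicin and 139.5 CPM untreated in deficient cultures. Ecm1 had 553 CPM with doxorubicin and 595 CPM untreated in wild type cultures. It fell in deficient cultures (log2 fold change -2.09 ± 0.111 SE, adjusted p = 2.05e-09). Smoc1, a SPARC relative, rose and had 15.8 (doxorubicin) and 22.6 CPM (untreated) in the deficient libraries and 4.19 (doxorubicin) and 5.42 CPM (untreated) in the wild type libraries (log2 fold change 1.99 ± 0.391 SE, adjusted p = 0.00154). Among 15 proteoglycans of the cell surface 4 rose and 3 fell, with a median of 0.45. Sdc1, a syndecan, fell and had 29.9 and 30.3 CPM in deficient cultures with and without doxorubicin, against 131 and 121 CPM in wild type cultures with and without it (log2 fold change -2.06 ± 0.167 SE, adjusted p = 2.35e-07). Ptprz1, a receptor phosphatase with chondroitin sulphate chains that binds tenascins, rose and had 355 (doxorubicin) and 298 CPM (untreated) in the deficient libraries and 176 (doxorubicin) and 160.0 CPM (untreated) in the wild type libraries (log2 fold change 0.96 ± 0.116 SE, adjusted p = 2.02e-05). Among 34 enzymes that build or cut glycosaminoglycan chains 2 rose and 5 fell, with a median of -0.18. Csgalnact1, which starts chondroitin chains, rose and had 16.2 and 14.0 CPM in deficient cultures with and without doxorubicin, against 1.31 and 2.26 CPM in wild type cultures with and without it (log2 fold change 3.12 ± 0.512 SE, adjusted p = 0.000346). Hyal1, which degrades hyaluronan, fell and had 28.6 (doxorubicin) and 26.4 CPM (untreated) in the deficient libraries and 159 (doxorubicin) and 155 CPM (untreated) in the wild type libraries (log2 fold change -2.51 ± 0.160 SE, adjusted p = 1.71e-08). Enzymes of chondroitin sulphate thus went both ways, since Chpf2, which extends the chains, fell (log2 fold change -1.03 ± 0.155 SE, adjusted p = 0.000165).

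Of 17 genes of the TGF-beta pathway 1 rose and 5 fell, against 12.6% and 10.6% of all genes tested, with a median of -0.39. Smad3, a transducer of the pathway, fell and had 17.7 and 11.6 CPM in deficient cultures with and without doxorubicin, against 39.6 and 35.1 CPM in wild type cultures with and without it (log2 fold change -1.38 ± 0.268 SE, adjusted p = 0.00142). Lrrc32, which holds latent TGF-beta on the cell surface, fell and had 4.35 (doxorubicin) and 5.34 CPM (untreated) in the deficient libraries and 13.1 (doxorubicin) and 24.6 CPM (untreated) in the wild type libraries (log2 fold change -1.90 ± 0.402 SE, adjusted p = 0.00274). Ccn2, a matricellular target gene of TGF-beta, was the one that rose (log2 fold change 1.07 ± 0.106 SE, adjusted p = 2.27e-06). Of 19 matrix receptors 2 rose and 4 fell, with a median of -0.14; Itga1, a collagen-binding integrin, rose (log2 fold change 0.78 ± 0.171 SE, adjusted p = 0.00355) and Itgav, which pairs with Itgb5 to bind vitronectin, fell (log2 fold change -0.50 ± 0.150 SE, adjusted p = 0.0239). Of 22 genes that modify, fold or trim collagen 4 rose and 1 fell, with a median of 0.09; the prolyl hydroxylases P3h2 (log2 fold change 1.34 ± 0.236 SE, adjusted p = 0.000619) and P4ha3 (log2 fold change 0.93 ± 0.151 SE, adjusted p = 0.000311) rose, and Bmp1, the procollagen C-proteinase, which also activates Lox, fell (log2 fold change -0.43 ± 0.128 SE, adjusted p = 0.0248). In none of these 6 lists did edgeR or either other tool call a gene in the doxorubicin test, and by unadjusted p under 0.05, 4 of their genes were higher and 8 lower.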

How the data were processed

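RNA was measured in 4 libraries of cultured mouse astrocytes, 1 per combination of genotype and treatment label. Per the labels' protocols, the SMART-Seq v4 kit was used, which keeps no strand. The authors made an estimated count and a TPM value for every gene and deposited both, unnormalized counts beside scaled TPM, per the file headers. The submitters' processing notes name DRAGEN and GRCm38. Versions, annotation release and read filters were not given in these sources.

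The deposited estimated counts were fractional in 5810 to 6451 genes per library and were rounded. Symbols came from a GENCODE annotation, matched by identifier without version (55227 matched, 260 not). Counts were scaled with TMM factors (0.98 to 1.02), and 1 CPM was added for log2 ratios of single libraries, which understates changes of low genes; a size of 2-fold was called, without p-values. Additive models of genotype and treatment used edgeR's quasi-likelihood test over the 15596 genes with a mean of at least 1 CPM, and standard errors were derived from the F statistic. Nothing in the labels says how many animals each culture came from. The sex-linked genes differ between both cultures of a genotype, which therefore did not come from the same animals alone, and p-values measure the spread between these libraries only. Intervals of ratios are 95% exact conditional binomial ones. There were no molecular identifiers, so these and the limit of 3 counts cover counting error only.

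Members, lists and tests were chosen with earlier results of these data known. Genes given in every library were those called in an additive test, those past 2-fold alike in both genotype comparisons, the 3 largest called ratios per comparison and the 2 highest mean TPM per class; outside the members, Creb3l1, Cdkn1a and up to 3 genes per list. Chpf2, Ccn2 and a few other examples were picked after their values were seen. The edgeR step was tested on simulated data. Alternatives changed the scaling (DESeq2 size factors, total counts, the deposited TPM), the pseudocount (0.5 or 5 CPM), the minimum (5 CPM or none), the tool (DESeq2, limma-voom) or the model (without the other factor, or without 1 library). RefSeq regions around start sites were searched on both strands. Software was R 4.3.3, edgeR 4.0.16, DESeq2 1.42.0, limma 3.58.1, Python 3.11.15, pandas 2.3.3, scipy 1.17.1 and matplotlib 3.10.9.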

Additional observations from a re-analysis of the deposited data

Results flagged for a closer look

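For 7 matrix genes the doxorubicin ratio pointed in opposite directions in the 2 genotypes and the ratios differed by at least 1 on the log2 scale. The difference, deficient minus wild type, was -4.31 for Loxl4, -3.95 for Postn, -1.26 for Ltbp4 and -1.25 for Thbs2, where deficient cultures were lower with doxorubicin than untreated and wild type cultures higher. It was 2.08 for Lama2, 1.37 for Nid1 and 1.03 for Loxl2, where deficient cultures were higher with doxorubicin and wild type cultures lower. How many of all genes tested meet this rule was not counted. Of all genes tested, 7.66% reached such a difference upward and 6.05% downward, and 50.7% had the same sign in both genotypes. By TPM with 1 added, Thbs2 (-0.997) and Lama2 (0.979) fell short, Loxl4 had no value, and the others stayed past 1. In deficient cultures the counting interval of the Thbs2 ratio, 0.815 to 1.04, included 1. Each value rests on 4 single libraries, treatment and sex of the culture cannot be told apart, and the difference was not tested.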

How the results depend on the processing

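With 1 library per group no ratio of single libraries has a replicate check, and counts near 0 (Lama1, Hapln1, Acan, Loxl4, Postn) limit what their ratios show. No paired analysis was possible because each group holds 1 library; the number in the sample titles is the same for both libraries of a treatment, so the treatment term of the additive model already sets these side by side. Counts of matrix genes past 2-fold moved as follows, with a mean of at least 1 TPM required by TPM. Untreated, the 10 higher in deficient cultures became 5 with a pseudocount of 5 CPM, 6 with a minimum mean of 5 CPM and 5 by TPM, and the 4 lower became 9 by TPM. With doxorubicin, the 7 higher in deficient cultures became 4 with the minimum of 5 CPM and 4 by TPM. The 3 lower with doxorubicin in deficient cultures became 0 with the pseudocount of 5 CPM, 1 with the minimum of 5 CPM and 1 by TPM. In wild type cultures the 4 higher became 2 and the 5 lower became 3 under each of these 3 settings. For the difference of both responses, the 6 upward became 3 with the pseudocount of 5 CPM and 3 by TPM, and the 7 downward became 3, 4 with the minimum of 5 CPM and 4 by TPM. In the additive genotype test the 15 higher became 3 to 15 and the 11 lower 1 to 10 with a library left out and genotype alone in the model; the 11 lower also became 6 with no minimum and 4 with no treatment in the model. The 1 gene lower in the additive doxorubicin test became 3 with DESeq2 size factors, 3 with the minimum of 5 CPM, 2 with DESeq2, 3 with limma-voom, 0 with no minimum, 0 with no genotype in the model, and 0 to 0 with a library left out. DESeq2 kept 24 of the 26 genotype calls, limma-voom 25, and edgeR with DESeq2 size factors all 26. Spp1 alone reversed, to 0.0197 without the deficient doxorubicin library, in a range from -0.53 over the libraries left out; of the other additive estimates 181 kept their call and 85 lost it. Of the values of ratios past 2-fold under these settings, 213 moved by less than the counting interval and 27 by more, none with a change of sign. Among all 205 ratios of matrix genes that could be compared, 14 differed in sign between TPM and CPM, none of them past 2-fold by CPM. The cause was not tested in any of these.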
